A study of Arabidopsis thaliana with 156 samples.

Results

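EXPA8, EXPB1, EXLA1, EXLB1 and XTH33 are 5 Arabidopsis thaliana genes for proteins that act on the plant cell wall, and each was read by 1 of the 19324 probe sets in the series. They were chosen by name, with no measured value in the rule, but with earlier results of these data known. EXPA8 (AT2G40610) lies on chromosome 2 at 16948791 to 16950705 of the TAIR10.1 assembly, and EXPB1 (AT2G20750) on chromosome 2 at 8940833 to 8942706. EXLA1 (AT3G45970) lies on chromosome 3 at 16896166 to 16897308, EXLB1 (AT4G17030) on chromosome 4 at 9581562 to 9583290, and XTH33 (AT1G10550) on chromosome 1 at 3479066 to 3481041.

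Plant cells grow when the wall yields to turgor. Expansins loosen the wall at acid pH without cutting its polymers, and EXPA8 and EXPB1 belong to the alpha and beta families in which this activity was described. EXLA1 and EXLB1 are expansin-like proteins, related in sequence but without an established loosening activity. XTH33 belongs to the xyloglucan endotransglucosylase/hydrolases, enzymes that cut xyloglucan, the main cross-linking hemicellulose of the wall, and rejoin it to other chains.

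The study followed vegetative development in plants of the Col-0 background with FRI introgressed from Sf-2, grown in 16 h days. FRI;flc-3 plants (73 arrays, below also flc-3 plants) lack functional FLC, a repressor of flowering that FRI raises, and FRI;FLC plants (80 arrays, below also FLC plants) carry it. A line with the 35S::miR156mimic transgene in FRI;FLC (3 arrays), in which the broadly active 35S promoter drives an RNA that sequesters miR156, was sampled as day 6 apices; how many independent lines it represents is not given in the sources used here. FRI;flc-3 apices were taken on days 4, 6, 9 and 11, and FRI;FLC apices on days 4, 6, 9, 11, 14 and 21 (30 apex arrays with the mimic line). Primordia of 1 mm (36 arrays, experiment 1) and fully expanded leaves (72 arrays, experiments 1 and 2) came from leaves 1/2, 3, 5, 7, 9 and 11 of both genotypes, and in FRI;flc-3 the expanded leaf 11 was cauline (6 of the 72 arrays). Primordia of these positions were collected on days 6, 9, 11, 14, 16 and 18 in both genotypes. Expanded leaves were collected from day 14 (leaves 1/2) to day 34 (leaf 11 of FRI;FLC in experiment 1). Higher positions were taken on the same or later days, so leaf position and plant age cannot be told apart. Leaves past full expansion (18 arrays, experiment 2) were leaves 3, 5 and 7 on day 32 in FRI;flc-3 and day 33 in FRI;FLC. Of 53 groups, 51 had 3 arrays, FRI;FLC apices at day 6 had 2, and FRI;flc-3 apices at day 6 had 1. Each array held RNA of a separate pool of organs collected at 3 times of day.

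Levels are deposited log2 signals, on which 1 unit is a 2-fold difference. The median of all values was 6.72 and their 10th percentile 2.03, below which values are near the low end of the scale. Array medians lay between 6.40 and 6.92, and the lowest correlation between arrays of a group was 0.954, in FRI;FLC apices at day 6. Differences were tested with limma (value ± SE), and "called" means a Benjamini-Hochberg adjusted p under 0.05 over all probe sets. Of the markers held for other cells, CLV3 (stem cells of the meristem) had group means of 2.02 to 5.11 in apices and 1.23 to 1.66 in primordia, and HTR12 (the centromeric histone of dividing cells) 9.34 to 10.93 in apices, 9.23 to 10.22 in primordia and 3.19 to 5.76 in expanded rosette leaves. The 5 members are signals of whole organs, so fewer cells of a type and less RNA per cell cannot be told apart.

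The 5 genes differed in where they peaked. EXPA8 was highest in expanded leaves 1/2 of FRI;FLC in experiment 1 (10.17 ± 0.47, SD, n = 3) and lowest in FLC leaf 9 primordia (2.32 ± 0.10). EXPB1 peaked instead in primordia, with 8.62 ± 0.28 in leaves 1/2 of FLC plants, and was lowest in FLC leaf 3 past full expansion (1.89 ± 0.45). EXLA1 was highest in expanded leaves 1/2 of experiment 2, at 12.78 ± 0.08 for FRI;flc-3 and 12.63 ± 0.09 for FLC plants, and lowest in FLC leaf 11 primordia (2.67 ± 0.25). EXLB1 was highest in FLC leaf 5 past full expansion (10.01 ± 1.16) and lowest in FLC leaf 11 primordia (1.60 ± 0.11). XTH33 was high in 2 groups, expanded leaves 1/2 of experiment 2 in flc-3 plants (9.04 ± 0.27) and FLC plants (8.80 ± 0.14), ahead of 5.51 in the next group, and its mean was under 2.03 in 18 of 53 groups. EXLB1 was under that level in 10 groups, EXPB1 in 1, and EXPA8 and EXLA1 in 0. When the 53 means of a gene were put in order, most neighbours differed by less than the larger of their SDs: 50 of 52 neighbouring pairs for EXPA8, 47 for EXPB1, 42 for EXLA1, 49 for EXLB1 and 51 for XTH33 (a group of 1 array has no SD, and its neighbour's was used).

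In shoot apices, all 5 genes were lower at day 11 than at day 4 in both genotypes. EXPA8 averaged 9.32 ± 0.64 in FRI;flc-3 at day 4 (SD, n = 3), and read 9.96 at day 6, 5.87, 6.79 and 7.64 at day 9, and 4.34, 3.93 and 4.42 at day 11. In FRI;FLC it read 9.19, 9.39 and 8.90 at day 4, 9.60 and 8.42 at day 6, 5.50, 5.94 and 5.97 at day 9, 4.25, 4.83 and 4.91 at day 11, 4.66, 3.49 and 4.59 at day 14, and 4.19, 4.73 and 5.09 at day 21. The arrays of days 4 and 6 thus lay above every array of later days in both genotypes. The day 11 minus day 4 difference of EXPA8 was -5.09 ± 0.40 in flc-3 plants (adjusted p = 1.53e-10) and -4.50 ± 0.40 in FLC plants (adjusted p = 1.8e-09). For EXPB1 it was -3.58 ± 0.35 in flc-3 plants and -3.36 ± 0.35 in FLC plants, and for EXLB1 -3.72 ± 0.45 and -3.04 ± 0.45 in the same order of genotypes. EXLA1 differed by -2.95 ± 0.46 in flc-3 plants and -1.83 ± 0.46 in FLC plants, and XTH33 by -1.22 ± 0.21 in flc-3 plants and -1.87 ± 0.21 in FLC plants. All 5 of 5 were called lower in each genotype, where 28.8% of all probe sets were called lower and 31.2% higher in flc-3 plants, and 29.6% lower and 30.8% higher in FLC plants. EXLA1 in FLC plants did not fall throughout: it was higher at day 6 than at day 4 (1.57 ± 0.52, adjusted p = 0.0333, 2 arrays at day 6) and lower at day 9 than at day 6 (-2.21 ± 0.52, adjusted p = 0.00237). Without replicate 3, its day 11 minus day 4 difference in FLC plants was -1.36 (adjusted p = 0.0694).

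**Figure D1:**
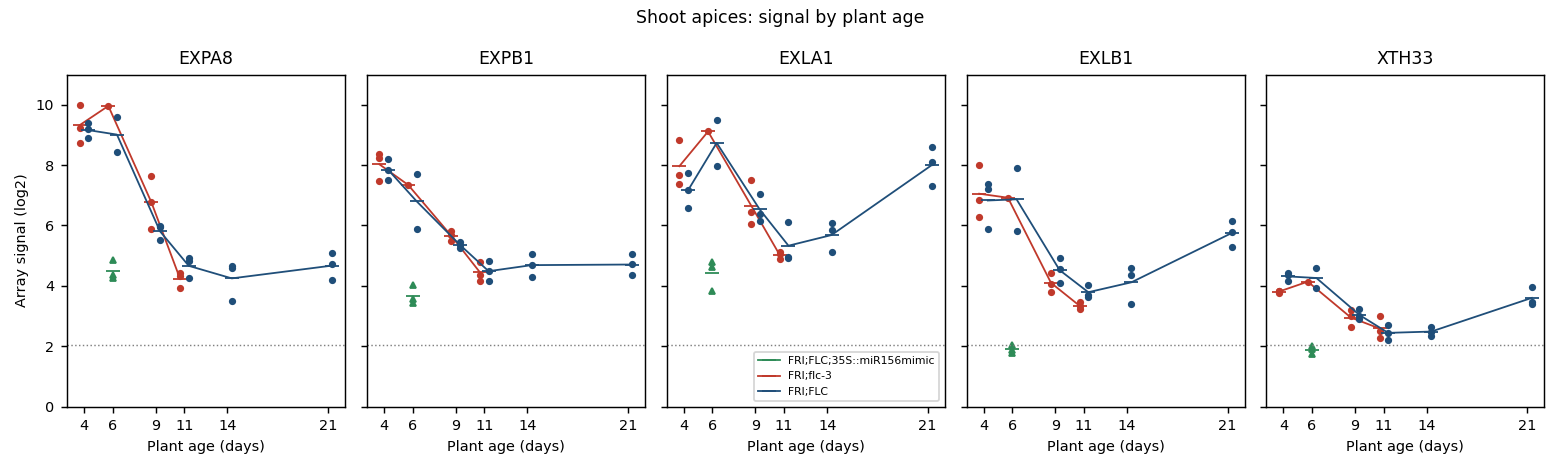
Signal (log2) of the 5 genes in shoot apices against plant age in days; circles and triangles are single arrays, dashes and lines join group means, and the dotted line is the 10th percentile of all values (2.03). All 5 genes were lower at day 11 than at day 4, and the 3 mimic arrays lay below the day 6 arrays of the other genotypes.

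After day 11 the genes parted. EXLA1 in FRI;FLC read 6.11, 4.92 and 4.96 at day 11, 6.08, 5.84 and 5.13 at day 14, and 8.60, 7.32 and 8.09 at day 21. EXLB1 read 3.64, 3.71 and 4.01 at day 11, 4.60, 3.39 and 4.36 at day 14, and 5.30, 5.79 and 6.16 at day 21. For both genes, all day 21 arrays lay above all arrays of days 11 and 14. From day 14 to day 21, a comparison chosen after seeing the values, EXLA1 rose by 2.32 ± 0.46 (adjusted p = 0.000856), EXLB1 by 1.64 ± 0.45 (adjusted p = 0.0136) and XTH33 by 1.11 ± 0.21 (adjusted p = 0.000511). EXPA8 (0.42 ± 0.40) and EXPB1 (0.02 ± 0.35) were not called, so 3 of 5 rose, where 8.3% of all probe sets were called higher and 6.78% lower. Over the whole interval, day 21 minus day 4, 4 of 5 were lower and 25.0% of all probe sets were called lower (25.2% higher): EXPA8 by -4.49 ± 0.40, EXPB1 by -3.14 ± 0.35, EXLB1 by -1.08 ± 0.45 (adjusted p = 0.0489) and XTH33 by -0.71 ± 0.21. EXLA1 differed by 0.84 ± 0.46 (adjusted p = 0.132). The EXLB1 difference lost its call in 6 alternatives, among them -0.57 without replicate 1 (adjusted p = 0.395), and that of XTH33 was -0.60 without replicate 2 (adjusted p = 0.0573).

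No member was called between the genotypes in apices. The mean FRI;flc-3 minus FRI;FLC difference over days 4, 9 and 11 ranged from -0.22 ± 0.26 for EXLB1 to 0.23 ± 0.23 for EXPA8, and 0 of 5 had an unadjusted p under 0.05, where 0.74% of all probe sets were called higher and 0.378% lower. The change from day 4 to day 11 did not differ by genotype at the threshold in limma either, with 0 of 5 called, 1 of 5 (XTH33, 0.65 ± 0.30, adjusted p = 0.448) at an unadjusted p under 0.05, and 0.186% of all probe sets called higher and 0.29% lower.

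Apices of the miR156 mimic line were low in all 5 genes at day 6. EXLB1 read 2.05, 1.79 and 1.88 in the mimic line, against 7.91 and 5.82 in FRI;FLC. EXPA8 read 4.37, 4.85 and 4.25 in the mimic line, against 9.60 and 8.42 in FLC plants. In EXLB1 the mimic arrays were near 2.03, and in EXPA8 well above it. EXLA1 read 4.64, 3.82 and 4.78 in the mimic line, against 9.50 and 7.97 in FLC plants. EXPB1 read 3.44, 4.02 and 3.57 in the mimic line, against 7.69 and 5.90 in FLC plants, and XTH33 1.75, 2.01 and 1.91, against 4.59 and 3.93. No array of the mimic line overlapped FLC plants of day 6 in any of the 5 genes. How many of all probe sets separate in this way was not counted. The differences were -4.96 ± 0.50 (EXLB1, adjusted p = 2.89e-08), -4.52 ± 0.45 (EXPA8), -4.32 ± 0.52 (EXLA1), -3.12 ± 0.39 (EXPB1) and -2.37 ± 0.24 (XTH33), all called, with adjusted p at or below 1.13e-06. The mimic means of EXLB1 and XTH33 lay under 2.03, so the sizes of their differences are set by the low end of the scale. The median of the 5 was -4.32, against 0.04 over all probe sets, of which 14.2% were called lower and 17.7% higher.

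The FRI;FLC arrays of day 6 were a pair that differed, with replicate 1 above replicate 2 in all 5 genes. Left out in turn after seeing this, replicate 1 gave an EXPB1 difference of -2.22 and replicate 2 one of -4.02. Each of these fits held 1 FRI;FLC array of day 6, so calls of the members are not given for them. The share of all probe sets called was 31.9% with both arrays and lower without replicate 1. The mimic values were also set beside older FLC apices, chosen after seeing the data. Against day 9, all 5 genes were lower in the mimic line (4.11% of all probe sets were called lower), from -1.15 for XTH33 to -2.61 for EXLB1. Against day 11, EXLB1 was lower (-1.88 ± 0.45, adjusted p = 0.00355), and the other 4 were not called, with -0.17 ± 0.40 for EXPA8, -0.81 ± 0.35 for EXPB1, -0.92 ± 0.46 for EXLA1 and -0.55 ± 0.21 for XTH33 (9.33% of all probe sets called lower). These comparisons share the mimic arrays.

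Other measures moved with apex age. The number of apices pooled per array was 120 at days 4 and 6, 60 at day 9, 30 at days 11 and 14, and 24 at day 21. The slope of signal on log2 gene length was -0.46 to -0.29 per array at day 4 of both genotypes, 0.10 to 0.18 at day 11, and -0.10 to 0.10 in the mimic line, against -0.53 and -0.09 in the FRI;FLC arrays of day 6. With the length trend removed, all member calls of the age and mimic comparisons remained except EXLB1 from day 4 to day 21 (adjusted p = 0.0616). CLV3 differed by -3.08 in FRI;flc-3 and -2.01 in FLC plants from day 4 to day 11, and by -1.80 in the mimic line against FLC plants. HTR12 differed by -0.84 in flc-3 plants and -1.13 in FLC plants from day 4 to day 11, and by -0.16 in the mimic line. Apex group means of RCA, a photosynthesis gene, ranged from 11.04 in FLC plants at day 21 to 12.45 in the mimic line. Those of SBPASE, another, ranged from 9.93 in flc-3 plants at day 6 to 11.85 in FLC plants at day 9. The part of these markers, of the pool size and of the length slope in the members' results was not tested.

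Of the other expansins measured, 3 of 8 were lower in FRI;flc-3 and 4 of 8 in FRI;FLC at day 11 than at day 4, and of the other XTH genes 6 of 8 and 5 of 8. EXPA16, an alpha-expansin, was the lowest in flc-3 plants (-2.04 ± 0.22), and EXPA15 in FLC plants (-1.69 ± 0.21). EXLA3, a close relative of EXLA1 by family, went the other way with age, by 1.42 ± 0.45 in flc-3 plants and 1.49 ± 0.45 in FLC plants, and by 5.47 ± 0.45 from day 4 to day 21. In the mimic line 4 of 8 other expansins and 2 of 8 other XTH genes were lower and 0 higher, with EXLA3 at -2.69 ± 0.50 and XTH27 at -1.96 ± 0.24. The median difference was -0.70 over the 8 expansins and -0.17 over the 8 XTH genes.

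In 1 mm primordia, 3 of the genes fell along the rosette by more than 2 log2 units while EXLB1 and XTH33 stayed at the low end of the scale. Position and collection day (6 to 18) rose together here. EXPA8 read 6.93, 6.90 and 6.76 in leaves 1/2 of FRI;flc-3, with means of 4.45, 3.31, 2.83 and 2.33 at leaves 3, 5, 7 and 9, and 2.62 at leaf 11. In FRI;FLC it read 7.17, 7.61 and 7.30 in leaves 1/2, with means of 5.13, 3.34, 2.99 and 2.32 at leaves 3, 5, 7 and 9, and 2.37 at leaf 11. The largest step lay between leaves 1/2 and 3, and arrays of these 2 positions did not overlap in either genotype. From leaves 1/2 to leaf 9, EXPA8 fell by 4.53 ± 0.19 in flc-3 plants and by 5.04 ± 0.19 in FLC plants, EXPB1 by 4.09 ± 0.21 and 3.62 ± 0.21, and EXLA1 by 2.71 ± 0.17 and 2.37 ± 0.17 in the same order of genotypes. The EXPA8 means at leaf 9 lay close above 2.03, which may limit the size of its falls. EXLB1 differed by -0.39 ± 0.13 in flc-3 plants and -0.76 ± 0.13 in FLC plants within a range of 1.43 to 2.62 over all primordium arrays, and with values under 2.03 set to 2.03 its flc-3 difference was -0.09 and not called. XTH33 ranged from 1.63 to 2.47 and was not called (-0.03 ± 0.11 in flc-3 plants and -0.16 ± 0.11 in FLC plants). Thus 4 of 5 were lower at leaf 9 in each genotype, where 14.5% of all probe sets were called lower in flc-3 plants and 16.9% in FLC plants (14.5% and 17.6% higher).

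HTR12 differed by 0.48 in FRI;flc-3 and 0.77 in FLC plants between the same positions, and RCA (Rubisco activase) by -0.27 and -0.41; their part in the members' fall was not tested. The fall did not differ by genotype at the threshold in limma: 0 of 5 were called, 1 of 5 (EXLB1, 0.37 ± 0.18) had an unadjusted p under 0.05, and 1.87% of all probe sets were called higher and 0.921% lower. Among other genes, EXPA16 fell alongside (-2.80 ± 0.20 in flc-3 plants, -2.69 ± 0.20 in FLC plants), while EXPA20 (1.10 ± 0.23 and 1.15 ± 0.23) and EXPA4 (0.83 ± 0.21 and 0.74 ± 0.21) rose. Of 8 other expansins, 3 were higher and 2 lower in flc-3 plants, and 2 higher and 3 lower in FLC plants.

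Genotype differences in primordia were small. Averaged over leaves 1/2 to 9, the FRI;flc-3 minus FLC difference was -0.30 ± 0.09 for EXPB1 (adjusted p = 0.0305), -0.27 ± 0.09 for EXPA8 (adjusted p = 0.0357) and -0.20 ± 0.05 for XTH33 (adjusted p = 0.00306), so 3 of 5 were lower, where 6.34% of all probe sets were called lower and 5.38% higher. EXPA8 and EXPB1 lost their calls whichever replicate was left out, and XTH33 without replicate 1. Taken position by position, EXLA1 was higher in flc-3 plants at leaf 5 (0.72 ± 0.17, adjusted p = 0.00964). EXPB1 was lower at leaf 9 (-0.73 ± 0.21, adjusted p = 0.0235), and no other member was called at a single position from leaves 1/2 to 9. At leaf 11, a position that was cauline when expanded in flc-3 plants, EXLA1 read 3.34, 3.30 and 3.24 in flc-3 plants, against 2.42, 2.92 and 2.66 in FRI;FLC, without overlap (0.63 ± 0.17, adjusted p = 0.00415). EXLB1 was higher (0.41 ± 0.13) and XTH33 lower (-0.31 ± 0.11) at levels around 2.03. With values under 2.03 set to 2.03, the EXLB1 difference was 0.03 (adjusted p = 0.827), and XTH33 lost its call whichever replicate was left out. That made 2 higher and 1 lower of 5, where 17.3% of all probe sets were called higher and 14.6% lower; without replicate 1 none of the 3 was called.

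Fully expanded leaves had higher signals of EXLA1, EXLB1 and EXPA8 than primordia of the same positions. Averaged over 6 positions of experiment 1, the difference of EXLA1 was 5.94 ± 0.20 in FRI;flc-3 and 4.01 ± 0.20 in FLC plants. EXPA8 differed by 4.72 ± 0.23 in flc-3 plants and 2.93 ± 0.23 in FLC plants. EXLB1 differed by 3.83 ± 0.13 in flc-3 plants and 5.32 ± 0.13 in FLC plants, and no primordium array (at most 2.62) reached any expanded leaf array (at least 4.42). EXPB1 was lower in expanded leaves, by -0.78 ± 0.21 in flc-3 plants and -1.19 ± 0.21 in FLC plants. XTH33 was higher by 0.77 ± 0.24 in flc-3 plants and 0.67 ± 0.24 in FLC plants, but 1 FLC leaf 7 array read 8.17 beside 2.88 and 3.20, and without it the FLC difference was 0.38 ± 0.15. In flc-3 plants, XTH33 was not called without replicate 1 (0.55, adjusted p = 0.0767), nor EXPB1 without replicate 2 (-0.51, adjusted p = 0.0745). So 4 of 5 were higher and 1 lower in each genotype, where 42.3% of all probe sets were called higher and 43.6% lower in flc-3 plants, and 39.9% and 44.6% in FLC plants.

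HTR12 was lower in expanded leaves by -5.61 in FRI;flc-3 and -5.33 in FLC plants, and its part was not tested. Among other wall genes, XTH16 differed by -5.66 ± 0.14 in flc-3 plants and -6.73 ± 0.14 in FLC plants, and EXPA15 by -5.24 ± 0.10 and -4.66 ± 0.10 in the same order. Of 8 other expansins, 3 were higher and 5 lower in each genotype. The rise from primordium to full expansion differed between the genotypes for 3 of 5 members, where 10.1% of all probe sets were called higher and 9.17% lower. It was larger in flc-3 plants for EXLA1 (1.92 ± 0.28, adjusted p = 4.4e-07) and EXPA8 (1.79 ± 0.32, adjusted p = 2.21e-05), and smaller for EXLB1 (-1.49 ± 0.18, adjusted p = 7.05e-09). These means include leaf 11, where the expanded leaf was cauline in flc-3 plants and rosette in FLC plants. There the EXLA1 difference between stages was 7.75 in flc-3 plants and 2.50 in FLC plants, while at leaves 1/2 it was 4.32 and 4.70, and at leaf 7 it was 6.47 and 7.29, in the same order. Without leaf 11, an alternative added after seeing the values, the interaction was 1.26 ± 0.31 for EXLA1 (adjusted p = 0.00322), 1.99 ± 0.35 for EXPA8 and -1.59 ± 0.20 for EXLB1, all still called. In experiment 1, leaves 3 to 11 of flc-3 plants were collected 2 to 4 days before those of FLC plants, so genotype and day cannot be told apart there.

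**Figure D2:**
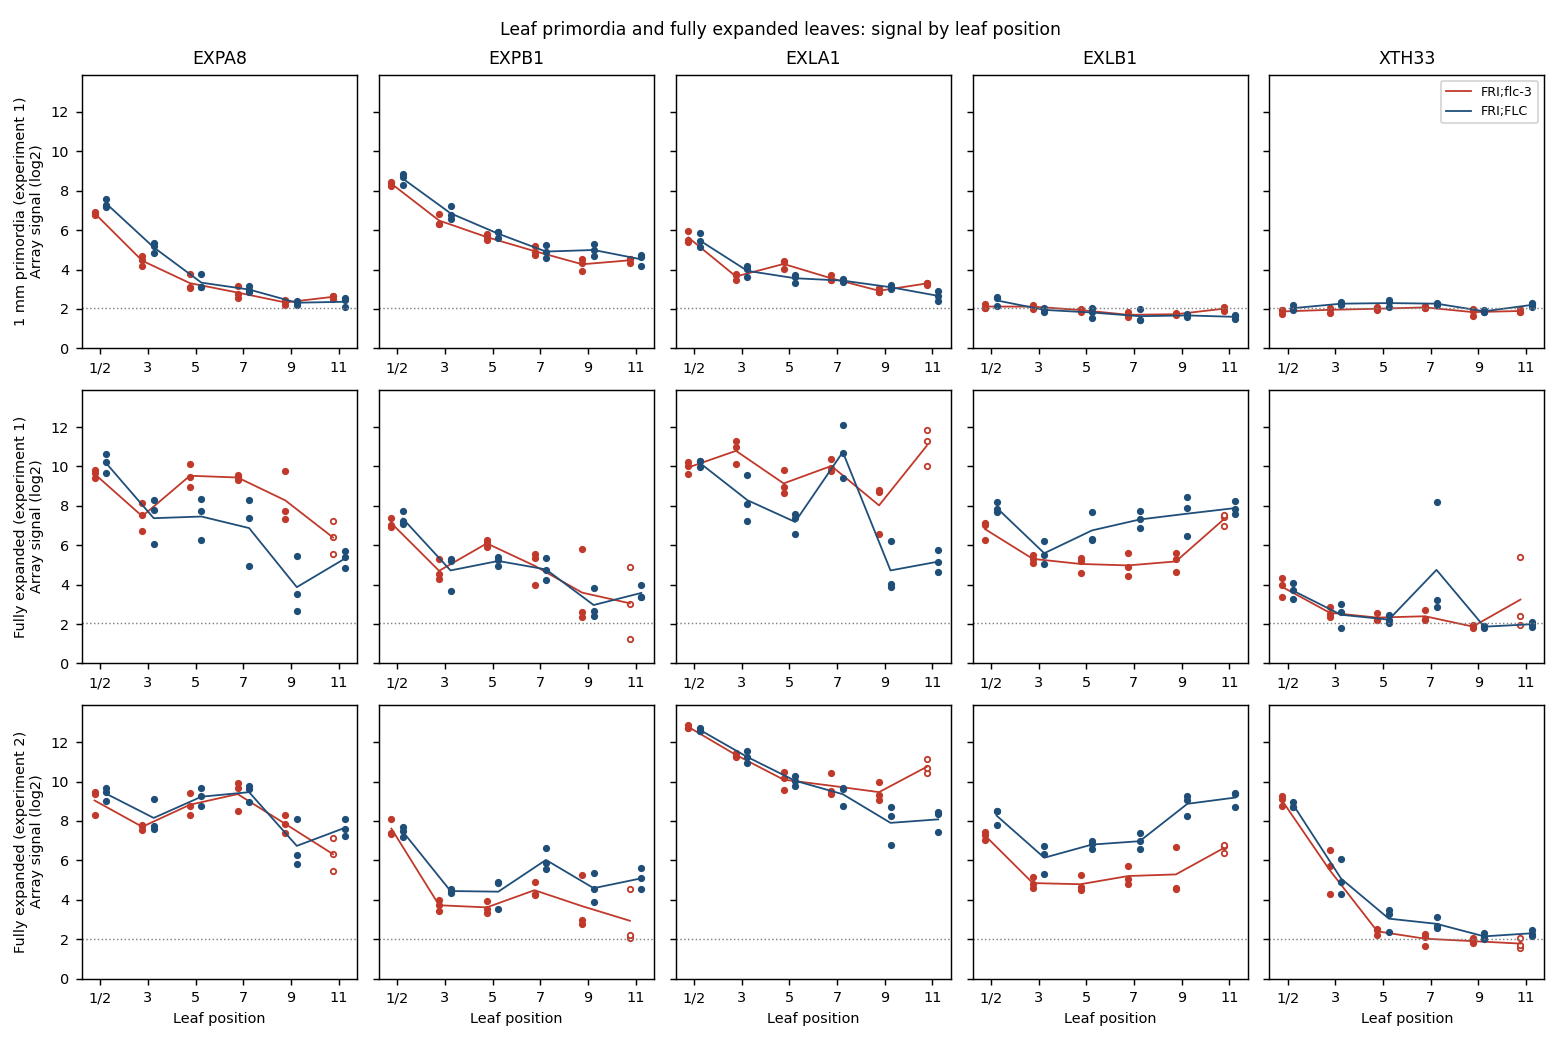
Signal (log2) of the 5 genes (columns) against leaf position in 1 mm primordia, and in fully expanded leaves of experiments 1 and 2 (rows); points are single arrays, lines join means, open points are cauline leaves, and the dotted line is 2.03. EXLB1 stayed between 1.43 and 2.62 in primordia, and XTH33 had group means over 8 in expanded leaves 1/2 of experiment 2 and under 6 elsewhere.

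In expanded leaves, 4 genes were lower at leaf 9 than in leaves 1/2 in both genotypes, averaged over the experiments. EXPB1 differed by -3.73 ± 0.45 in FRI;flc-3 and -3.63 ± 0.45 in FLC plants, XTH33 by -4.58 ± 0.41 and -4.24 ± 0.41, EXLA1 by -2.62 ± 0.36 and -5.09 ± 0.36, and EXPA8 by -1.27 ± 0.51 (adjusted p = 0.0378) and -4.48 ± 0.51, in the same order of genotypes. The XTH33 means at leaf 9 were 1.87 to 2.14, at the low end of the scale, and with values under 2.03 set to 2.03 its differences were -4.44 and -4.16, so these sizes are lower limits. EXLB1 fell in flc-3 plants (-1.80 ± 0.33) and was not called in FLC plants (0.15 ± 0.33, adjusted p = 0.755). Thus 5 of 5 were lower in flc-3 plants, where 21.7% of all probe sets were called lower and 21.8% higher, and 4 of 5 in FLC plants, where 21.0% were called lower and 22.3% higher. The EXPA8 fall in flc-3 plants was not called within either experiment (-1.19 in experiment 2, -1.35 in experiment 1), nor without replicate 2 (-0.86, adjusted p = 0.376) or replicate 3 (-0.94, adjusted p = 0.231). Its means did not fall steadily between these positions. At leaf 7 of experiment 2 EXPA8 averaged 9.36 in flc-3 plants and 9.46 in FLC plants, against 9.04 and 9.39 in leaves 1/2. In experiment 1 it averaged 9.44 and 6.87 at leaf 7, against 9.62 and 10.17 in leaves 1/2, in the same order. Among other genes, EXLA2 was lower by -3.47 ± 0.23 in flc-3 plants and -2.89 ± 0.23 in FLC plants, and XTH16 by -3.27 ± 0.23 and -3.95 ± 0.23.

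The experiments differed in XTH33. In leaves 1/2 of experiment 1 it read 4.36, 3.96 and 3.36 in FRI;flc-3, against 4.08, 3.26 and 3.72 in FRI;FLC. In leaves 1/2 of experiment 2 it read 8.74, 9.11 and 9.27 in flc-3 plants, against 8.72, 8.73 and 8.96 in FLC plants. The experiments did not overlap there, although both were collected on day 14, and at leaf 9 every array of both was between 1.80 and 2.32. The fall of XTH33 from leaves 1/2 to leaf 9 was -7.14 in experiment 2 and -2.02 in experiment 1 in flc-3 plants, and -6.66 and -1.82 in FLC plants. The difference between the experiments, a comparison added after seeing the values, was -5.12 ± 0.82 in flc-3 plants (adjusted p = 1.22e-05) and -4.84 ± 0.82 in FLC plants (adjusted p = 1.63e-05). The experiments differed for EXPA8 by 0.15 ± 1.02 in flc-3 plants (adjusted p = 0.941) and by 3.65 ± 1.02 in FLC plants (adjusted p = 0.00423), a contrast between genotypes that was not tested. In FLC plants its fall was -2.65 in experiment 2 and -6.30 in experiment 1. In flc-3 plants 1 of 5 was lower, where 5.58% of all probe sets were called lower and 6.13% higher, and in FLC plants 1 was higher and 1 lower, where 19.1% were called higher and 18.6% lower. Over the 12 groups that both experiments hold, experiment 2 was higher in EXLA1 (1.52 ± 0.15), XTH33 (1.12 ± 0.17) and EXPA8 (0.66 ± 0.21), 3 of 5 where 19.7% of all probe sets were called higher and 29.1% lower; EXPA8 lost its call without replicate 2 (0.61, adjusted p = 0.0759) or replicate 3 (0.44, adjusted p = 0.156).

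The change with position depended on genotype in 3 of 5 genes, where 3.22% of all probe sets were called higher and 3.29% lower. EXPA8 at leaf 9 of experiment 1 read 9.79, 7.72 and 7.32 in FRI;flc-3, against 5.45, 2.65 and 3.52 in FRI;FLC. At leaf 9 of experiment 2 it read 8.32, 7.38 and 7.84 in flc-3 plants, against 5.83, 6.26 and 8.11 in FLC plants. The genotypes did not overlap in experiment 1 and did in experiment 2. The interaction (flc-3 minus FLC plants) was 3.21 ± 0.72 for EXPA8 (adjusted p = 0.00223), 2.47 ± 0.51 for EXLA1 (adjusted p = 0.000709) and -1.95 ± 0.46 for EXLB1 (adjusted p = 0.00395), against -0.10 ± 0.63 for EXPB1 and -0.34 ± 0.58 for XTH33. In experiment 2 alone, those of EXPA8 (1.46) and EXLA1 (1.41) were not called, and in experiment 1 alone that of EXLB1 (-1.33) was not. Each also lost its call without 1 replicate: EXPA8 (3.06, adjusted p = 0.0515) and EXLA1 (1.78, adjusted p = 0.0515) without replicate 2, and EXLB1 (-1.36, adjusted p = 0.125) without replicate 3. Leaf 9 was collected on day 30 in flc-3 plants and day 33 in FLC plants in experiment 1, and on days 32 and 33 in experiment 2.

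Where both genotypes were collected on equal days (leaves 1/2 to 7 of experiment 2), EXLB1 was lower in FRI;flc-3. It read 4.49, 5.24 and 4.63 at leaf 5 in flc-3 plants, against 6.98, 6.84 and 6.58 in FRI;FLC, and the genotypes did not overlap at leaf 3, 5 or 7 or in leaves 1/2. The mean difference was -1.52 ± 0.23 (adjusted p = 2.05e-06), and it was 1 of 5 called, where 3.03% of all probe sets were called lower and 3.14% higher. Taken leaf by leaf, EXLB1 was called at leaf 5 (-2.01 ± 0.46, adjusted p = 0.0107) and leaf 7 (-1.77 ± 0.46, adjusted p = 0.0164). It was not called in leaves 1/2 (-1.02 ± 0.46, adjusted p = 0.94) or at leaf 3 (-1.29 ± 0.46, adjusted p = 0.335). EXPB1 (-0.73 ± 0.31, adjusted p = 0.191) was not called with all leaf arrays in the fit but was with the compared groups alone (adjusted p = 0.00534). EXPA8 differed by -0.33 ± 0.36 here and by 1.05 in experiment 1 (adjusted p = 0.0354), where days differed.

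EXLA1 was higher in the cauline leaf 11 of FRI;flc-3 than in the rosette leaf 11 of FRI;FLC. It read 11.83, 10.01 and 11.31 in flc-3 plants in experiment 1, against 4.62, 5.14 and 5.75 in the FRI;FLC rosette leaf 11. In experiment 2 it read 10.41, 11.13 and 10.70 in flc-3 plants, against 7.42, 8.47 and 8.35 in FLC plants. The groups did not overlap in either experiment, and the mean difference was 4.27 ± 0.36 (adjusted p = 4.45e-16). It was 5.88 in experiment 1 (days 30 and 34, flc-3 plants first) and 2.67 in experiment 2 (days 32 and 33). At leaf 9, a rosette leaf in both genotypes, EXLA1 was also higher in flc-3 plants, by 3.30 in experiment 1 and 1.56 in experiment 2. In experiment 2, rosette leaves 1/2 and 3 of flc-3 plants (12.78 and 11.35) lay above the cauline mean (10.75). In experiment 1 the cauline mean (11.05) was the highest. EXLB1 (-1.57 ± 0.33) and EXPB1 (-1.34 ± 0.45, adjusted p = 0.0126) were lower in the cauline leaf than in the FRI;FLC rosette leaf 11. Thus 1 was higher and 2 lower of 5, where 19.7% of all probe sets were called higher and 18.6% lower. In experiment 1 alone neither of these falls was called (-0.58 and -0.53). The EXPB1 call was also lost without replicate 2 (-0.59, adjusted p = 0.486), without replicate 3 (adjusted p = 0.0785) and with the compared groups alone (adjusted p = 0.0901). EXPB1 replicates of the cauline leaf spread widely, with 4.88, 1.25 and 3.03 in experiment 1 and 4.55, 2.03 and 2.22 in experiment 2. Replicate 1 was the highest in both experiments. At leaf 9 of flc-3 plants replicate 1 was also the highest (5.81 in experiment 1 and 5.27 in experiment 2).

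Set against rosette leaf 9 of FRI;flc-3, the cauline leaf was higher in EXLA1 (2.16 ± 0.36) and EXLB1 (1.73 ± 0.33) and lower in EXPA8 (-1.71 ± 0.51, adjusted p = 0.0125), 2 higher and 1 lower of 5, where 9.31% of all probe sets were called higher and 9.52% lower. In experiment 2 alone none of the 3 was called (1.29, 1.33 and -1.54), and EXPA8 was not called without replicate 1 (-1.62, adjusted p = 0.0561) or replicate 2 (-1.54, adjusted p = 0.103). Among other genes EXPA9 (2.69 ± 0.25) and XTH19 (3.70 ± 0.63) were higher, and EXPB3 (-4.05 ± 0.32) and XTH32 (-3.14 ± 0.41) lower, in the cauline leaf than in the FRI;FLC rosette leaf 11. In FLC plants, leaf 11 was a rosette leaf, so genotype and leaf type cannot be told apart.

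Leaves past full expansion differed most between the genotypes in EXLB1, which moved in opposite directions when leaves 3, 5 and 7 were averaged. In leaf 3 it read 3.45, 2.36 and 3.82 past full expansion in FRI;flc-3, against 4.79, 5.13 and 4.62 at full expansion. In leaf 3 of FRI;FLC it read 7.65, 7.84 and 6.67 past full expansion, against 5.31, 6.34 and 6.74 at full expansion. The leaf 3 arrays of the stages lay apart in flc-3 plants and overlapped in FLC plants. In leaf 5 it read 3.09, 3.64 and 3.34 past full expansion in flc-3 plants, against 4.49, 5.24 and 4.63 at full expansion. In leaf 5 of FLC plants it read 10.85, 10.49 and 8.68 past full expansion, against 6.98, 6.84 and 6.58 at full expansion. In leaf 5 the stages lay apart in both genotypes. In leaf 7 it read 4.90, 3.43 and 4.55 past full expansion in flc-3 plants, against 5.08, 4.82 and 5.72 at full expansion. In leaf 7 of FLC plants it read 7.98, 8.91 and 8.25 past full expansion, against 7.38, 6.96 and 6.57 at full expansion. The leaf 7 stages overlapped in flc-3 plants and lay apart in FLC plants, and at this leaf alone neither genotype was called (-0.91 ± 0.46, adjusted p = 0.254 in flc-3 plants, and 1.41 ± 0.46, adjusted p = 0.0555 in FLC plants). Past full expansion, no array of flc-3 plants (2.36 to 4.90) reached FLC plants (6.67 to 10.85). Averaged over leaves 3, 5 and 7, EXLB1 fell past full expansion in flc-3 plants (-1.33 ± 0.27, adjusted p = 5.39e-05) and rose in FLC plants (1.96 ± 0.27, adjusted p = 1.17e-08). The interaction was -3.28 ± 0.38 (adjusted p = 1.92e-09). Among the past leaves themselves, compared after seeing the values, flc-3 minus FLC plants was -4.97 ± 0.27 for EXLB1 (adjusted p = 1.43e-24).

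**Figure D3:**
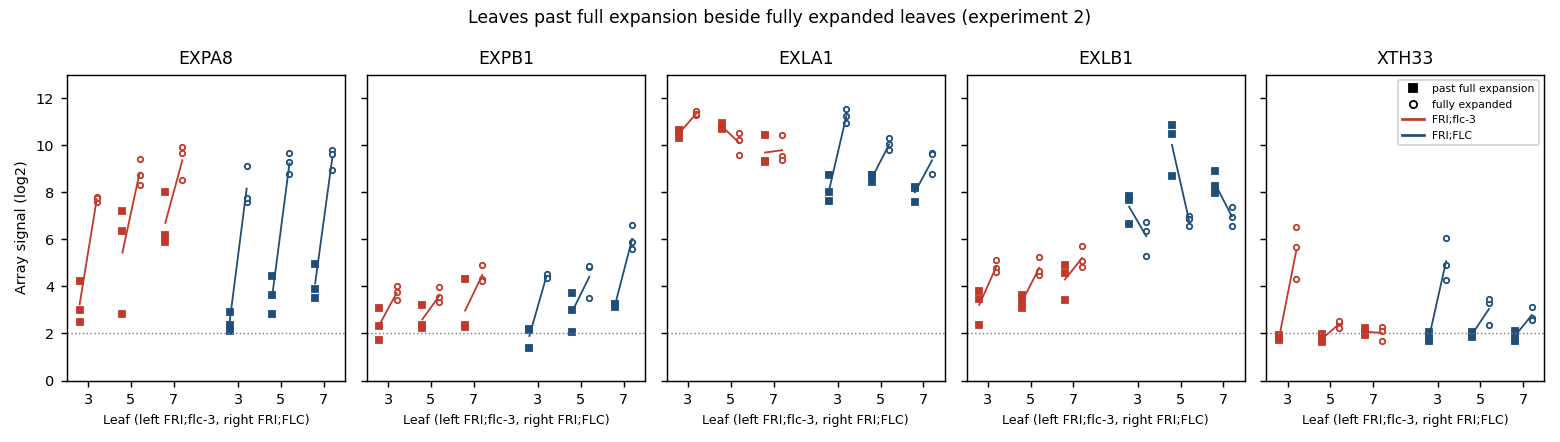
Signal (log2) of the 5 genes in leaves 3, 5 and 7 of experiment 2, past full expansion (squares) and at full expansion (open circles); points are single arrays, lines join the means, FRI;flc-3 is at the left of each panel and FRI;FLC at the right, and the dotted line is 2.03. EXLB1 past full expansion lay between 2.36 and 4.90 in flc-3 plants and between 6.67 and 10.85 in FLC plants.

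EXPA8, EXPB1 and XTH33 were lower past full expansion in both genotypes, averaged over leaves 3, 5 and 7. EXPA8 differed by -3.50 ± 0.42 in FRI;flc-3 and -5.54 ± 0.42 in FLC plants, EXPB1 by -1.29 ± 0.36 and -2.28 ± 0.36, and XTH33 by -1.42 ± 0.34 and -1.75 ± 0.34 in the same order. Taken leaf by leaf, XTH33 was called at leaf 3 (-3.69 ± 0.58 in flc-3 plants, -3.25 ± 0.58 in FLC plants), and not at leaf 5 (-0.62 and -1.09) or leaf 7 (0.06 and -0.90), and all past means were at most 2.08. The EXPB1 difference in flc-3 plants was not called without replicate 2 (-1.20, adjusted p = 0.0668). In leaf 5 past full expansion EXPA8 read 2.81, 6.33 and 7.18 in flc-3 plants, against 2.81, 3.64 and 4.45 in FRI;FLC; without the lowest flc-3 array its fall was -3.07. EXLA1 fell in FLC plants (-1.97 ± 0.29) and was not called in flc-3 plants (-0.08 ± 0.29, adjusted p = 0.88). In flc-3 plants 4 of 5 were lower, where 16.1% of all probe sets were called lower and 14.5% higher; in FLC plants 4 were lower and 1 higher, where 16.8% were called lower and 17.9% higher. The change depended on genotype for 3 of 5, where 3.45% of all probe sets were called higher and 3.55% lower. Beside EXLB1 these were EXPA8 (2.04 ± 0.59, adjusted p = 0.0207) and EXLA1 (1.89 ± 0.41, adjusted p = 0.00144), and EXPA8 lost its call without replicate 2 (2.26, adjusted p = 0.171) or replicate 3 (1.56, adjusted p = 0.181).

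Past leaves of FRI;flc-3 minus those of FRI;FLC were 2.08 ± 0.29 for EXLA1 and 1.72 ± 0.42 for EXPA8, so 2 were higher and 1 lower of 5, where 14.4% of all probe sets were called higher and 17.3% lower; EXPB1 (-0.03 ± 0.36) and XTH33 (0.01 ± 0.34) were not called. RCA differed by -0.08 in flc-3 plants and -0.35 in FLC plants past full expansion, and TRY, a gene of trichome patterning, by 0.21 and -1.71; their part was not tested. None of the 6 senescence genes on the list was among the named probe sets, and senescence of the past leaves was not analysed here. Among other expansins EXPA4 rose in both genotypes (1.16 ± 0.20 in flc-3 plants, 1.34 ± 0.20 in FLC plants).

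**Figure D4:**
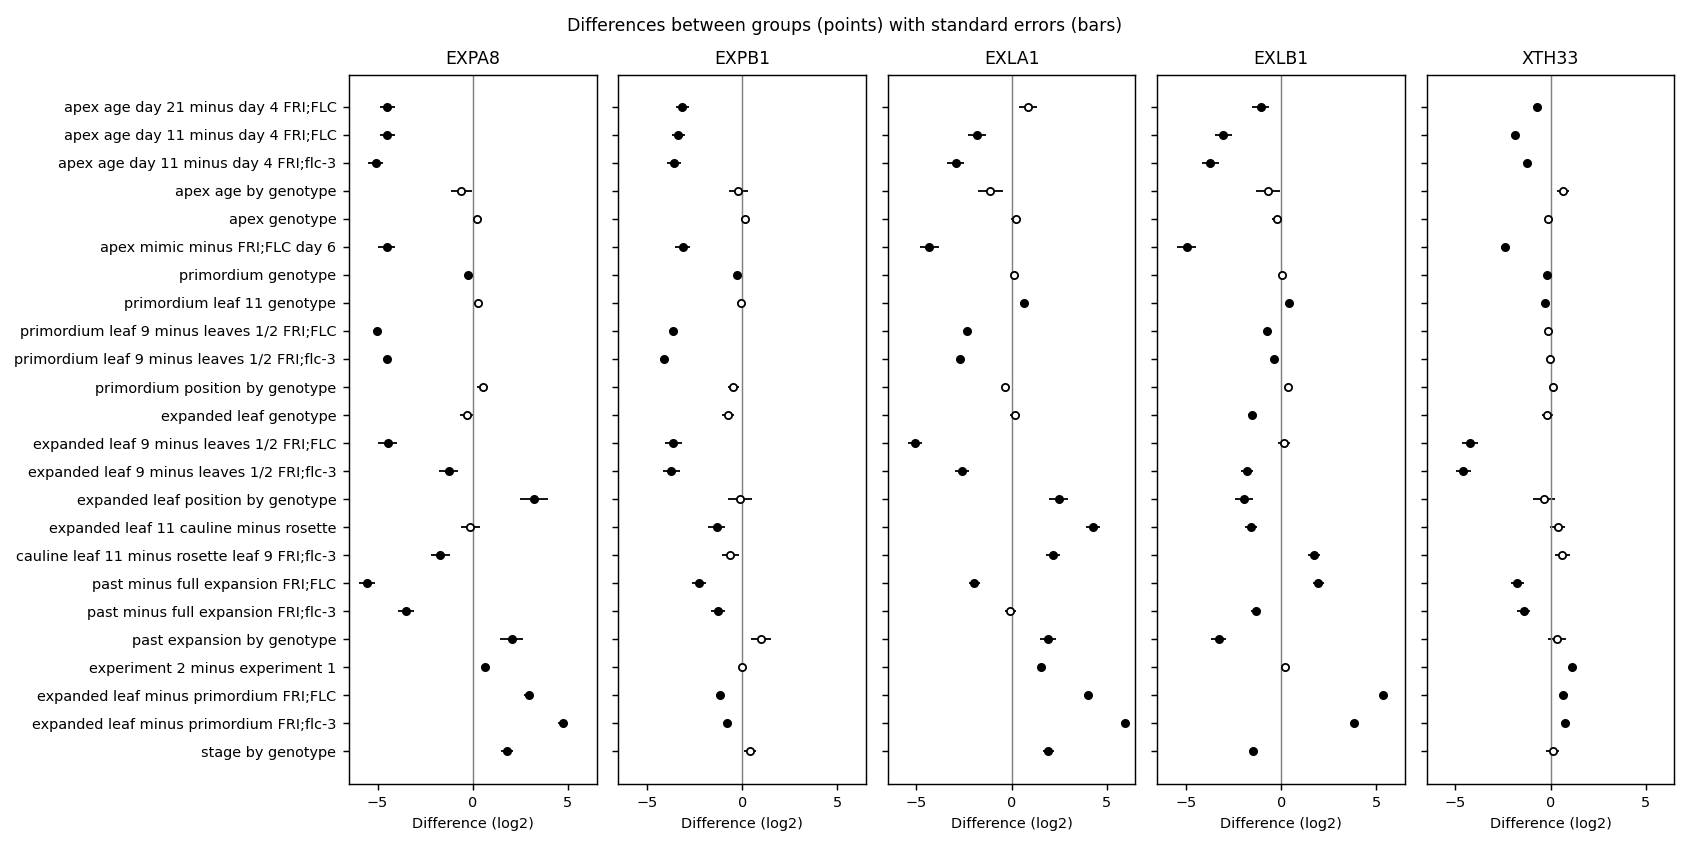
Differences (log2, points) with SE (bars) for the 5 genes in all 24 comparisons; filled points were called at an adjusted p under 0.05, and differences run older minus younger, upper minus lower position, past minus full expansion, expanded minus primordium, mimic or FRI;flc-3 minus FRI;FLC. The mimic difference and the apex age differences within a genotype lie below 0 for all 5 genes except EXLA1 at day 21 minus day 4 (0.84, not called), and the genotype interactions of EXLB1 in leaves lie opposite to those of EXPA8 and EXLA1.

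How closely the genes followed each other depended on the organ. Pearson r between pairs of members, over group means and as a description only, was 0.77 to 0.97 over 11 apex groups (10 pairs), -0.28 to 0.99 over 12 primordium groups and -0.28 to 0.69 over 24 groups of expanded leaves; the groups share genotypes, ages and array processing. In primordia the 3 genes that fell together, EXPA8, EXPB1 and EXLA1, had r of 0.92 to 0.99, and pairs with XTH33 -0.28 to -0.02. Over all 53 groups EXPA8 and EXLA1 were the most alike pair (0.70), and EXPB1 and EXLA1 the least (-0.07).

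The genes whose group means were most like each member over the 53 groups were picked from 7132 probe sets with 1 gene and an SD of at least 0.5. For EXPA8 they were AT4G12690 (r = 0.869), AT1G66820 (0.843) and AT3G01490 (0.834). For EXPB1 they were BZIP34 (AT2G42380, 0.906), BZIP61 (AT3G58120, 0.864), which are bZIP transcription factors, and AT3G56160 (0.830). For EXLA1 they were AT5G62720 (0.934), AT5G14120 (0.923) and AT4G15690 (0.908). For EXLB1 they were AT1G61667 (0.867), AT1G67050 (0.859) and AT5G11970 (0.856). For XTH33 they were AT1G50040 (0.888), AT1G77640 (0.866) and AT3G19680 (0.863). No other expansin or XTH gene was among these 15.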

How the data were processed

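The authors deposited log2 signal per probe set and array. The submitters' processing notes list GCRMA and MAS5, with no role or version. No pseudocount, floor or rescaling was applied. RNA was amplified before labelling, per the labels' protocols, so precision rests on the replicate pools; signal holds no count of molecules. Probe sets were named from the platform annotation (10918 with 1 gene, 407 with several, 7999 unnamed).

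One coefficient per group was fitted with limma 3.58.1 in R 4.3.3 (eBayes with trend) to apices (30 arrays), primordia (36), leaves (90) and, for stages, experiment 1 (72). The fits were also run on simulated data with known changes and independent normal errors, which checks the fitting steps and not their assumptions about these data. p-values were two-sided and Benjamini-Hochberg adjusted over 19324 probe sets. Arrays of equal replicate number were weakly alike at most in the median, so no block was used in the main fits. The median correlation of their deviations was -0.01 to 0.09 over the fits, against -0.04 to 0.01 for other pairs. It was highest in apices (0.09 against -0.04), where 51 of 108 such pairs were over 0.1. Single pairs differed widely: in the leaf fit they ranged from -0.72 to 0.81, and 256 of 657 were over 0.1. The labels give 1 tube of tissue per replicate and name no separate sowing for the replicates of a group, so p-values measure the spread between pools.

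The 5 members and the gene lists were chosen with earlier results of these data known. Of 29 expansins and 33 XTH genes listed, 12 and 9 were measured, members included. Members were always named; of other wall genes, at most the 2 largest called differences in each direction per comparison. Alternatives were another normalization, filters, priors, array weights, a floor, a length correction, fewer groups, single experiments, the replicate block and leaving out replicates. Promoter and protein sequences were not used here.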

Additional observations from a re-analysis of the deposited data

Results flagged for a closer look

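In 3 comparisons the change differed between the genotypes by an interaction test in limma, in the same 3 genes each time (differences are FRI;flc-3 minus FRI;FLC, on the log2 scale). The change from leaves 1/2 to leaf 9 of expanded leaves differed by 3.21 for EXPA8, 2.47 for EXLA1 and -1.95 for EXLB1; the first 2 lost their calls in experiment 2 alone and without replicate 2, and EXLB1 in experiment 1 alone and without replicate 3. The change past full expansion differed by 2.04 for EXPA8, 1.89 for EXLA1 and -3.28 for EXLB1, and EXPA8 lost its call without replicate 2 (adjusted p = 0.171) or replicate 3 (adjusted p = 0.181). The change from primordium to full expansion differed by 1.79 for EXPA8, 1.92 for EXLA1 and -1.49 for EXLB1. That comparison includes leaf 11, which was cauline when expanded in FRI;flc-3, and without it the values were 1.99, 1.26 and -1.59 in the same order, all called. Of all probe sets, 3.22% were called higher and 3.29% lower in the interaction of position. For past expansion the shares were 3.45% and 3.55%, and for stage 10.1% and 9.17%. The comparisons of position and of stage share expanded leaves of experiment 1, and those of position and of past expansion share no arrays. Collection days differed between the genotypes in part of these groups, and the part of the day was not tested.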

How the results depend on the processing

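The 24 comparisons of 5 genes gave 120 results, of which 80 were called, and 1479 alternative values. Of these, 1390 kept their direction and side of the threshold, 52 of the 80 called results did so in every alternative run, and 0 called results turned in sign. Without the trend in the prior, the value no longer called was -1.08 (EXLB1, apices from day 4 to day 21). With array weights, the values no longer called were -0.86 (EXLB1, apices from day 4 to day 21) and -0.23 (EXPA8, primordium genotype). With array weights, the value newly called was -0.76 (EXPB1, expanded leaf genotype). With array weights, the values turned in sign were -0.33 (EXLB1, FRI;FLC expanded leaf position), -0.024 (XTH33, cauline against rosette leaf 11) and 0.0055 (EXPB1, the experiments). With values under 2.03 raised to it, the values no longer called were -1.08 (EXLB1, apices from day 4 to day 21), 0.030 (EXLB1, leaf 11 primordium genotype) and -0.094 (EXLB1, FRI;flc-3 primordium position). With values under 2.03 raised to it, the value turned in sign was -0.046 (EXLB1, primordium genotype), and the value that became 0.000, with no sign, was that of XTH33 (FRI;flc-3 primordium position). With the length trend removed, the value no longer called was -1.003 (EXLB1, apices from day 4 to day 21). With FRI;FLC day 11 as the control, the values no longer called were -0.17 (EXPA8, the mimic comparison), -0.81 (EXPB1, the mimic comparison), -0.92 (EXLA1, the mimic comparison) and -0.55 (XTH33, the mimic comparison). In experiment 1 alone, the values no longer called were -1.35 (EXPA8, FRI;flc-3 expanded leaf position), -1.33 (EXLB1, expanded leaf position by genotype), -0.53 (EXPB1, cauline against rosette leaf 11) and -0.58 (EXLB1, cauline against rosette leaf 11). In experiment 1 alone, the values newly called were 0.88 (EXLA1, expanded leaf genotype) and 1.37 (XTH33, cauline leaf 11 against leaf 9). In experiment 1 alone, the values turned in sign were 1.05 (EXPA8, expanded leaf genotype), 0.21 (EXPB1, expanded leaf genotype), -0.30 (EXLB1, FRI;FLC expanded leaf position), 0.86 (EXPB1, expanded leaf position by genotype) and 1.08 (EXPA8, cauline against rosette leaf 11). In experiment 2 alone, the values no longer called were -1.19 (EXPA8, FRI;flc-3 expanded leaf position), 1.46 (EXPA8, expanded leaf position by genotype), 1.41 (EXLA1, expanded leaf position by genotype), -1.54 (EXPA8, cauline leaf 11 against leaf 9), 1.29 (EXLA1, cauline leaf 11 against leaf 9) and 1.33 (EXLB1, cauline leaf 11 against leaf 9). In experiment 2 alone, the values turned in sign were -0.52 (XTH33, cauline against rosette leaf 11) and -0.12 (XTH33, cauline leaf 11 against leaf 9). With the compared groups alone in the fit, the value no longer called was -1.34 (EXPB1, cauline against rosette leaf 11). With the compared groups alone in the fit, the value newly called was -0.73 (EXPB1, expanded leaf genotype). With quantile normalization, the value turned in sign was 0.0999 (EXPB1, the experiments). Without leaf 11, the value turned in sign was -0.19 (XTH33, stage by genotype). Leaving out each replicate in turn changed calls or signs within these ranges: EXLB1 -1.75 to -0.57 and XTH33 -0.86 to -0.60 (apices from day 4 to day 21), EXLA1 -2.21 to -1.36 (FRI;FLC apices from day 4 to day 11), EXPB1 -0.52 to 0.056 and EXLB1 -1.23 to 0.39 (apex age by genotype), EXPA8 -0.035 to 0.38 (apex genotype), EXPA8 -0.32 to -0.22, EXPB1 -0.35 to -0.27, EXLB1 -0.037 to 0.063 and XTH33 -0.22 to -0.19 (primordium genotype). Further ranges were EXPB1 -0.25 to 0.13, EXLA1 0.49 to 0.75, EXLB1 0.31 to 0.50 and XTH33 -0.33 to -0.28 (leaf 11 primordium genotype), EXLB1 -0.45 to -0.32 and XTH33 -0.14 to 0.12 (FRI;flc-3 primordium position), EXLA1 -0.65 to 0.074 (primordium position by genotype), XTH33 -0.30 to 0.0062 (expanded leaf genotype), EXLB1 -0.24 to 0.58 (FRI;FLC expanded leaf position). Further ranges were EXPA8 -2.01 to -0.86 (FRI;flc-3 expanded leaf position), EXPA8 2.69 to 3.88, EXPB1 -0.61 to 0.38, EXLA1 1.78 to 3.02 and EXLB1 -2.33 to -1.36 (expanded leaf position by genotype), EXPA8 -0.76 to 0.43, EXPB1 -2.10 to -0.59 and XTH33 -0.31 to 0.79 (cauline against rosette leaf 11), EXPA8 -1.96 to -1.54 (cauline leaf 11 against leaf 9), EXPB1 -1.50 to -1.18 and EXLA1 -0.31 to 0.051 (FRI;flc-3 past expansion). Further ranges were EXPA8 1.56 to 2.48 (past expansion by genotype), EXPA8 0.44 to 0.92 and EXPB1 -0.036 to 0.050 (the experiments), EXPB1 -1.11 to -0.51 and XTH33 0.55 to 0.89 (FRI;flc-3 stage), XTH33 -0.24 to 0.46 (stage by genotype). The cause of these changes was not tested, and values of single experiments and of left-out replicates also rest on fewer arrays. A fit with the replicate block changed 0 of 120 results, and gave 6273 called probe sets in the mimic comparison, against 6164 without it. Numbers called over all probe sets differed by over 1.5 times in 50 of 315 alternatives, and in the mimic comparison they were 1583 with array weights, 588 with the compared groups alone, 3702 against FRI;FLC days 4 and 9, 3660 against day 11, 1381 against day 9 and 960 without replicate 1. The controls of days 9 and 11, single arrays left out, the stage comparison without leaf 11, the experiment interaction, past leaf genotype and the step from day 14 to day 21 were chosen after seeing the data. Values near 2.03 limit what EXLB1 and XTH33 can show in primordia and in mimic apices, and XTH33 also in expanded leaf 9 and in leaves past full expansion. EXPA8 was also near this level in leaf 9 primordia (2.32 in FRI;FLC, 2.33 in FRI;flc-3). In FRI;FLC leaf 3 past full expansion EXPA8 (2.46) was near it and EXPB1 (1.89) under it.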
